A study of Mus musculus with 24 samples.

Results

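Tubulin genes encode the subunits of microtubules, the filaments that give axons and dendrites their tracks for transport. RNA abundance and ribosome-protected fragments (RPFs, the mRNA pieces covered by ribosomes) were measured for 10 of them in mouse hippocampal slices: the α-tubulin genes Tuba1a, Tuba1b and Tuba4a, the β-tubulin genes Tubb2a, Tubb2b, Tubb3, Tubb4a, Tubb4b and Tubb5, and the γ-tubulin gene Tubg1. They were taken by name from the 23845 genes of the RNA table and the 20436 genes of the RPF table. All 10 were present in both tables and passed the filter on low counts, among 14516 genes tested for RNA, 12877 for RPF and 12785 for RPFs relative to RNA.

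The slices came from male mice aged 28 to 42 days. WT mice were compared with littermates that carried 1 germline deleted Tsc2 allele (Tsc2+/-), obtained by crossing CMV-Cre mice with Tsc2flox mice and breeding on C57BL/6J. Tsc2 encodes a brake on the growth-promoting kinase complex mTORC1, and the question was how its reduced dose and synaptic stimulation alter mRNA abundance and translation. Slices of either genotype received vehicle (artificial cerebrospinal fluid) or DHPG, an agonist of group 1 metabotropic glutamate receptors that induces long-term depression of synapses, at 100 µM for 5 min. All slices, controls included, were then placed in cycloheximide at 100 µg/ml, which arrests elongating ribosomes. Each lysate pooled slices from several mice, and part of it was taken for RNA-seq and the rest for ribosome profiling. The labels do not say which mice entered which lysate. There were 4 groups of 3 lysates (WT vehicle, WT DHPG, Tsc2+/- vehicle and Tsc2+/- DHPG), 12 lysates and 24 libraries. The deletion was present in every cell type of the animal, so the groups do not separate neurons from glia. CA3 had been cut off the slices per the study's methods, which also state that CA1 was dissected after the vehicle or DHPG treatment. The study describes these samples as CA1-enriched, so tissue from other regions was a remainder. In such bulk samples fewer cells of a type and less RNA per cell cannot be told apart.

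α- and β-tubulin form the heterodimer from which microtubules are built, while γ-tubulin sits in ring complexes that nucleate new microtubules. The mRNAs of α- and β-tubulin are known for autoregulation during translation. When free tubulin dimers are in excess, the factor TTC5 recognises the first residues of the nascent chain as it leaves the ribosome, and with SCAPER and the CCR4-NOT deadenylase it brings about decay of the mRNA being translated. γ-Tubulin starts with another coding sequence and is not known for this loop.

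The start of the coding sequence is shown for each member, since autoregulation reads the peptide encoded there. Each sequence holds the first 30 bases of the coding sequence, 5′ to 3′, from the RefSeq annotation of GRCm38.p6, and capitals mark the first 4 codons.
Tuba1a: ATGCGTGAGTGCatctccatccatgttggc
Tuba1b: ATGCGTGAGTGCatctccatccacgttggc
Tuba4a: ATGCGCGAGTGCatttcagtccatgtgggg
Tubb2a: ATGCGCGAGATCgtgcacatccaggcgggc
Tubb2b: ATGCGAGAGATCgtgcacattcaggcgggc
Tubb3: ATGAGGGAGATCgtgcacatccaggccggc
Tubb4a: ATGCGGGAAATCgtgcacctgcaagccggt
Tubb4b: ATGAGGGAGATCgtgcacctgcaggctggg
Tubb5: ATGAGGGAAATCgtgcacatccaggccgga
Tubg1: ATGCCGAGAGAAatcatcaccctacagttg
The 12 capital bases were identical in Tuba1a and Tuba1b and identical in Tubb3 and Tubb4b. Over the 10 members there were 8 distinct starts, 2 among the 3 α members, 5 among the 6 β members and that of Tubg1. Translated, the capitals read MREC in every α member, MREI in every β member and MPRE in Tubg1. The base differences within the α and within the β members thus left the encoded peptide unchanged.

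By the same annotation, each α and β member had 4 coding exons and Tubg1 had 11. Tuba1a (chromosome 15, 98949847 to 98953501, minus strand) and Tuba1b (chromosome 15, 98931429 to 98934390, minus strand) were neighbours, and their start codons began at 98953453 and 98934335. Tubb2a (chromosome 13, 34074278 to 34078008, minus strand) and Tubb2b (chromosome 13, 34127008 to 34130354, minus strand) were neighbours as well, with start codons beginning at 34077929 and 34130233. Tuba4a lay on chromosome 1 (75214972 to 75221261, minus strand, start codon 75219195). Tubb3 lay on chromosome 8 (123411553 to 123422015, plus strand, start codon 123411606). Tubb4b lay on chromosome 2 (25222158 to 25224702, minus strand, start codon 25224590). Tubg1 lay on chromosome 11 (101119904 to 101126423, plus strand, start codon 101120194). Tubb5 (35833920 to 35838301, minus strand, start codon 35838053) and Tubb4a (57080061 to 57087600, minus strand, start codon 57087513) lay on chromosome 17, which also carries Tsc2 (24595816 to 24632676).

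RNA libraries held 14801679 to 24067838 counts and RPF libraries 5296006 to 13613673. Tsc2 RNA was 186 to 214 CPM (counts scaled to a common library size) in the 6 WT libraries and 128 to 137 CPM in the 6 Tsc2+/- libraries, and its RPFs were 123 to 146 and 76.5 to 84.5 CPM. The summed RNA of 5 CA1 markers was 1639 to 1815 CPM against 29.9 to 38.8 CPM for 5 CA3 markers and 22.1 to 53.9 CPM for 5 dentate gyrus markers. Oligodendrocyte markers summed to 5018 to 6451 CPM, astrocyte markers to 1727 to 2057 CPM, microglial markers to 165 to 222 CPM and endothelial markers to 57.2 to 90.6 CPM, so glia and vessels were part of the tissue. Immature neuron markers summed to 74.5 to 88.3 CPM and choroid plexus markers to 15.5 to 24.9 CPM. No marker was called in the 4 pairwise comparisons, and marker sums whose groups did not overlap are given beside the comparisons they touch. In the RPF libraries of replicates 2 and 3, 97.9% to 98.5% of the genes with any count had an even count. In replicate 1 this held for 48.2% to 49.0%. Should the counts of replicates 2 and 3 be inflated, the RPF count ranges and depths given here overstate the reads behind them, which was not tested. The result of halving the RPF counts of replicates 2 and 3 is given with the other alternatives.

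Together the 10 genes took 0.493% ± 0.0237 of the RNA counts of WT vehicle libraries and 0.556% ± 0.0312 of their RPF counts (SD, n = 3). The shares in the other groups were 0.508% ± 0.0156, 0.486% ± 0.0161 and 0.496% ± 0.00999 of RNA and 0.569% ± 0.0308, 0.557% ± 0.0136 and 0.555% ± 0.0172 of RPFs, in WT DHPG, Tsc2+/- vehicle and Tsc2+/- DHPG (SD, n = 3). The plot of CPM by library shows little shift between groups beside the span of the 10 genes, some of which lie at like heights.

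**Figure D1:**
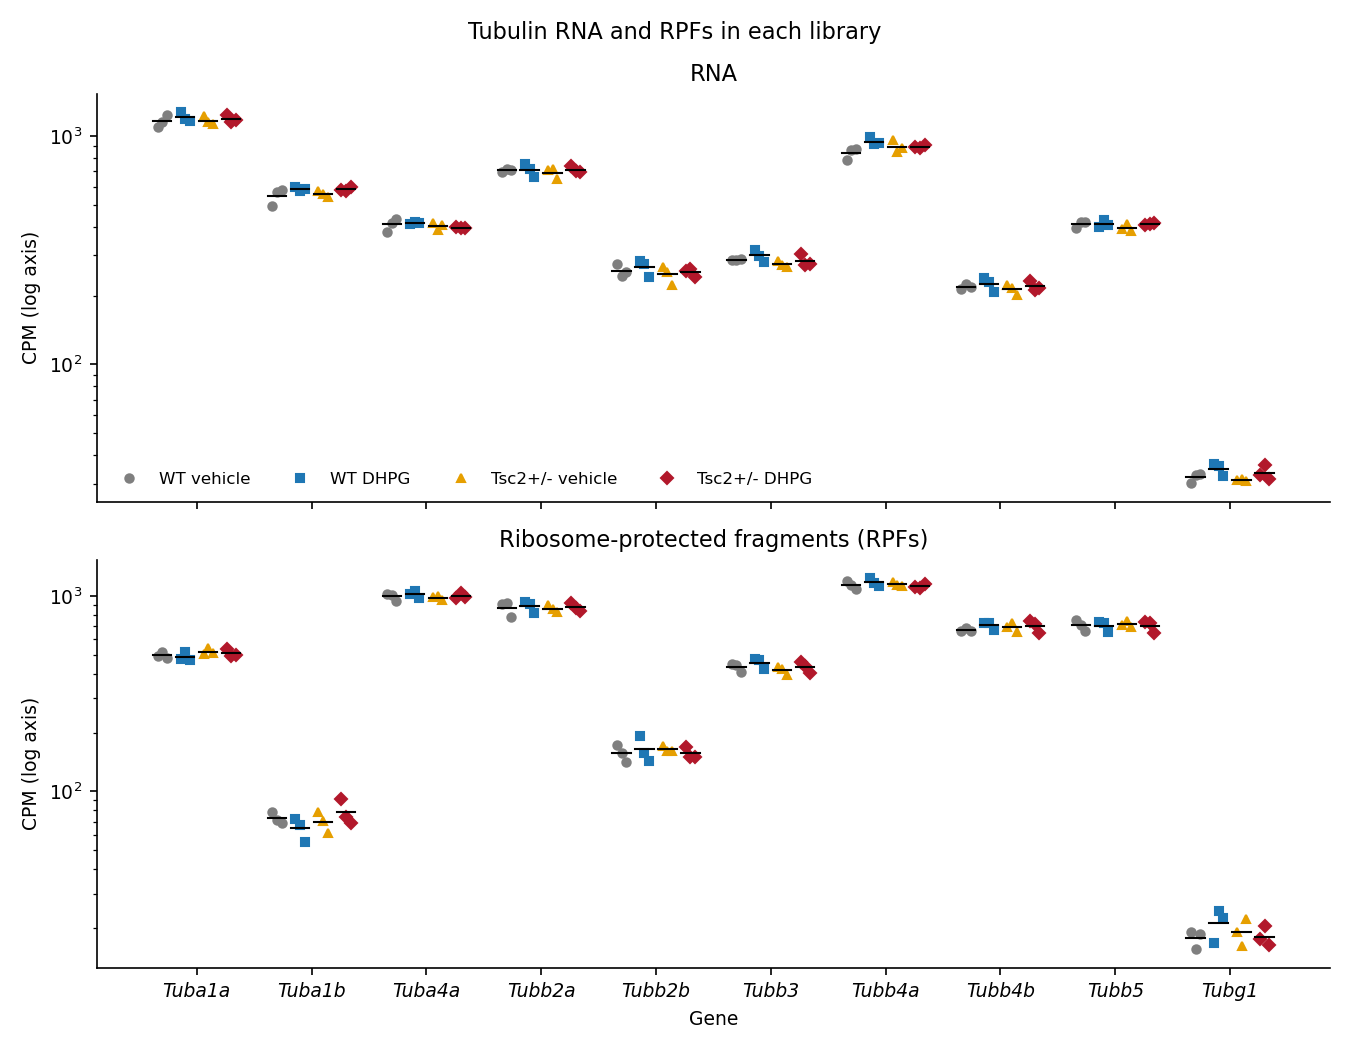
RNA (upper) and RPF (lower) CPM of each tubulin gene on a log axis, with a point for every library of the 4 groups and a black bar at the group mean (n = 3). The genes differ far more from each other than the groups differ within a gene, from about 1098 to 1273 CPM of RNA for Tuba1a down to 30.2 to 36.5 CPM for Tubg1.

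To compare genes with each other, CPM were divided by the counted length, which is the transcript for RNA and the coding sequence without 30 bases at each end for RPFs, giving RPKM, in which length and library size are both taken out. In WT vehicle, Tuba1a, the main α-tubulin of young neurons, had the highest RNA level of the members at 732 ± 45.8 RPKM (SD, n = 3), at percentile 99.8 of 13765 genes. The median of those genes was 6.78 RPKM. Next came Tubb2a, a major neuronal β-tubulin, at 439.8 ± 4.92 RPKM, Tubb4a, a β-tubulin of neurons and myelinating oligodendrocytes, at 412 ± 24.9 RPKM, and Tuba1b, a broadly expressed α-tubulin, at 350.3 ± 30.1 RPKM (SD, n = 3). The ranges of adjacent members overlapped only between Tubb4b and Tubb2b in WT vehicle. In WT DHPG and Tsc2+/- vehicle Tubb4a stood above Tubb2a.

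The lower part of the RNA order held Tuba4a, whose protein is made without the terminal tyrosine of other α-tubulins, at 196 ± 12.6 RPKM, the neuron-specific β-tubulin Tubb3 at 165 ± 0.904 RPKM and the broadly expressed β-tubulin Tubb5 at 156 ± 4.86 RPKM (SD, n = 3). Tubb4b, also broadly expressed, was at 137 ± 3.59 RPKM and Tubb2b, a β-tubulin of developing neurons and glia, at 134 ± 8.35 RPKM (SD, n = 3). Tubg1 stood apart at 19.7 ± 0.979 RPKM (SD, n = 3), percentile 75.2 of all genes. RNA levels spanned 37.2-fold from Tuba1a to Tubg1, but 5.46-fold from Tuba1a to Tubb2b within the α and β members.

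The RPF order was not the RNA order. Tubb4a led at 893 ± 42.4 RPKM, followed by Tuba4a at 771 ± 33.1, Tubb2a at 676 ± 60.3, Tubb5 at 556 ± 37.4 and Tubb4b at 524 ± 10.6 RPKM (SD, n = 3), and the libraries of Tubb5 and Tubb4b overlapped. This pair stood in the other order in both DHPG groups. Tuba1a, first in RNA, was sixth in RPFs at 384 ± 12.5 RPKM, ahead of Tubb3 at 335 ± 17.8 and Tubb2b at 123 ± 12.4 RPKM (SD, n = 3). Tuba1b was at 56.3 ± 3.85 RPKM, percentile 78.3 of all genes, and Tubg1 at 13.7 ± 1.46 RPKM, percentile 45.2, with a median over genes of 16.7 RPKM. The highest and lowest RPF levels of α and β members, Tubb4a and Tuba1b, were 15.9-fold apart. With the shortest RefSeq transcript of Tuba4a in place of the longest, its RPF level was 1458 RPKM, which put Tuba4a first and the span to Tuba1b at 25.9-fold.

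RPFs per RNA, the ratio of the 2 RPKM values within a lysate, is the measure of ribosome occupancy per message. Tuba4a had 3.96 ± 0.401, Tubb4b 3.83 ± 0.0727 and Tubb5 3.58 ± 0.346, and these 3 overlapped, all above the median of 2.24 over genes (SD, n = 3). Tubb4a at 2.18 ± 0.237 and Tubb3 at 2.03 ± 0.116 overlapped each other and lay near that median, and Tubb2a followed at 1.54 ± 0.138 (SD, n = 3). Below 1 were Tubb2b at 0.917 ± 0.0653, Tubg1 at 0.698 ± 0.0976 and Tuba1a at 0.527 ± 0.0420, and Tuba1b was lowest at 0.162 ± 0.0260, percentile 0.150 of all genes (SD, n = 3). The α members alone thus spanned 24.4-fold, and the order of the other groups differed from that of WT vehicle by an exchange of overlapping neighbours, Tubb3 with Tubb4a in WT DHPG and Tsc2+/- DHPG, and Tubb4b with Tuba4a in Tsc2+/- vehicle. With the shortest instead of the longest RefSeq transcript of Tuba4a, its ratio was 6.96 and the span of the α members 42.9-fold, while the other members did not depend on the transcript chosen.

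These levels rest on how far reads could be placed uniquely, since only uniquely mapped reads had been kept. Of all 30-base windows of the coding sequence, the length of a typical RPF, 2.37% of those of Tuba1b and 5.05% of those of Tuba1a occurred nowhere else in the genome or in another member's transcript, and the pair shared 73.2% of windows. Tubb2b had 18.9%, Tubb4b 22.1% and Tubb2a 27.5% unique windows, and Tubb2a and Tubb2b shared 64.5%. Tubg1 had 70.9%, Tubb3 72.6%, Tuba4a 90.7%, Tubb5 95.6% and Tubb4a 96.3%. For 60-base windows of the transcript, closer to RNA reads, the values were 11.6% for Tuba1b and 29.5% for Tuba1a, but 53.2% for Tubb2a, 48.6% for Tubb2b, 49.5% for Tubb4b and 91.9% to 100% for the rest.

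The 5 members with under 30% unique windows had RPF per RNA ratios of 0.162 to 3.83 (median 0.917), and the 5 with over 70% had 0.698 to 3.96 (median 2.18). Across the 10 genes, which share libraries and sequence, the ratio and the percentage of unique windows had a Pearson's r of 0.566 and a Spearman's rho of 0.697, given as a description. The levels of Tuba1a, Tuba1b, Tubb2a, Tubb2b and Tubb4b, and their ratios, are therefore uncertain as levels, and the part of read placement in them was not tested. Fold changes between groups compare the same windows of the same gene, but whether reads were placed alike in every library was not tested. With 2.37% of its coding windows unique, the RPF and TE changes of Tuba1b may rest on few positions.

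**Figure D2:**
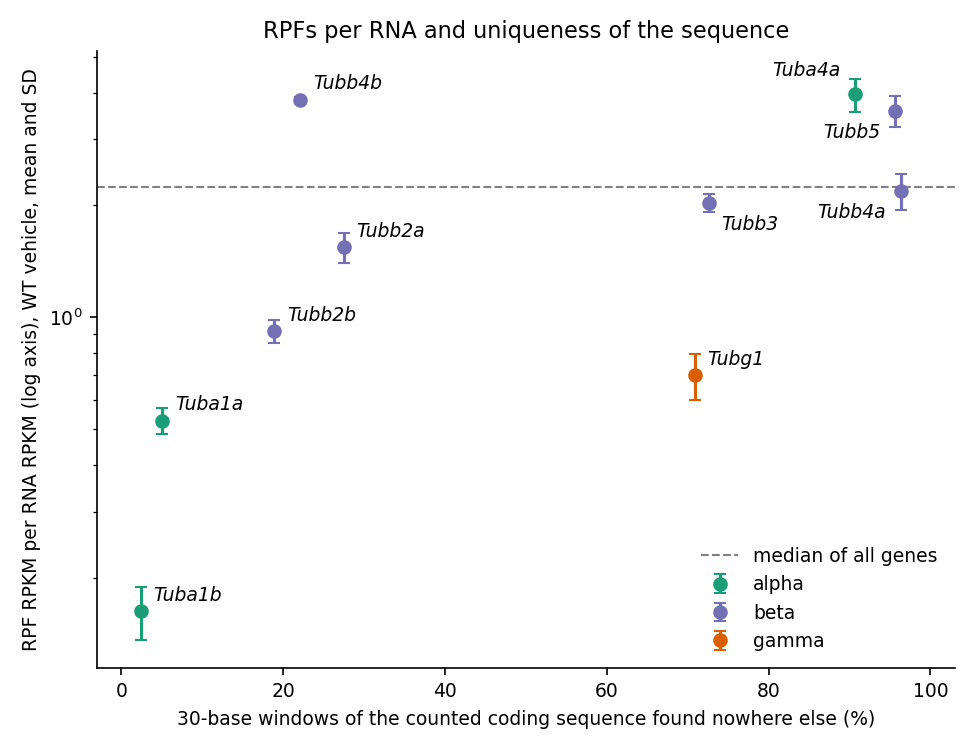
RPF RPKM per RNA RPKM in WT vehicle on a log axis (mean ± SD, n = 3) against the percentage of 30-base coding windows of each gene that occur nowhere else. The dashed line marks the median of all genes, 2.24; Tuba1b and Tuba1a lie lowest on both axes, and Tubb4b has a ratio of 3.83 with 22.1% unique windows.

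Isotype shares differed between RNA and RPFs accordingly, and they carry the same uncertainty of read placement. The α shares also depend on the Tuba4a transcript, whose RPF level was 771 RPKM with the longest and 1458 RPKM with the shortest. The shares below use the longest. Of the RNA RPKM of the 3 α members in WT vehicle, Tuba1a made up 57.3%, Tuba1b 27.4% and Tuba4a 15.3%, whereas of their RPF RPKM Tuba4a made up 63.6%, Tuba1a 31.7% and Tuba1b 4.64%. Of the β RNA, Tubb2a made up 30.5% and Tubb4a 28.5%, with Tubb3 at 11.5%, Tubb5 at 10.8%, Tubb4b at 9.47% and Tubb2b at 9.30%. Of the β RPFs, Tubb4a made up 28.8% and Tubb2a 21.7%, with Tubb5 at 17.9%, Tubb4b at 16.9%, Tubb3 at 10.8% and Tubb2b at 3.95%. As counted, Tubb5 and Tubb4b held more of the RPFs than of the RNA, and Tuba1b and Tubb2b less.

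Among the α members, RNA of Tuba1a in replicates 1, 2 and 3 was 1098, 1152 and 1242 CPM (WT vehicle), 1273, 1186 and 1163 (WT DHPG), 1222, 1155 and 1126 (Tsc2+/- vehicle) and 1234, 1148 and 1170.0 CPM (Tsc2+/- DHPG). Its RPFs were 494, 516 and 484 CPM (WT vehicle), 478, 514 and 471 (WT DHPG), 505, 538 and 509.5 (Tsc2+/- vehicle) and 535, 495 and 501 CPM (Tsc2+/- DHPG). The groups overlapped in both measures, and the log2 fold changes between them were small, from -0.03 to 0.05 for RNA and -0.03 to 0.07 for RPFs over the 4 pairwise comparisons. RNA of Tuba1b was 494, 571 and 579 CPM (WT vehicle), 598, 577 and 584 (WT DHPG), 575, 556 and 543 (Tsc2+/- vehicle) and 583, 576 and 597 CPM (Tsc2+/- DHPG). The lowest of these was the first WT vehicle library, and the 3 Tsc2+/- DHPG libraries all lay above the 3 Tsc2+/- vehicle libraries. RPFs of Tuba1b were 78.5, 71.5 and 68.9 CPM (WT vehicle), 72.4, 67.4 and 55.1 (WT DHPG), 78.2, 70.4 and 61.0 (Tsc2+/- vehicle) and 91.3, 74.2 and 68.6 CPM (Tsc2+/- DHPG), from 362 to 995 counts a library. In each group replicate 1 had the highest and replicate 3 the lowest value, so that all groups overlapped although, pair by pair, WT DHPG lay below Tsc2+/- DHPG in all 3 numbers.

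The RPF CPM per RNA CPM of Tuba1b was 0.159, 0.125 and 0.119 (WT vehicle), 0.121, 0.117 and 0.0944 (WT DHPG), 0.136, 0.127 and 0.112 (Tsc2+/- vehicle) and 0.157, 0.129 and 0.115 (Tsc2+/- DHPG). In WT the DHPG value was below the vehicle value of the same replicate number in 3 of 3 pairs. RNA of Tuba4a was 381, 417 and 433 CPM (WT vehicle), 413, 419 and 414 (WT DHPG), 416, 388 and 408 (Tsc2+/- vehicle) and 398, 396 and 396 CPM (Tsc2+/- DHPG). The Tsc2+/- DHPG libraries all lay below the WT DHPG libraries. RPFs of Tuba4a, at 1019, 1016 and 944 CPM (WT vehicle), 1026, 1059.9 and 976 (WT DHPG), 982, 993 and 949.6 (Tsc2+/- vehicle) and 977, 1033 and 984 CPM (Tsc2+/- DHPG), overlapped between all groups.

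Among the β members, RNA of Tubb2a was 699, 714 and 707 CPM (WT vehicle), 754, 714 and 663 (WT DHPG), 711, 716 and 648 (Tsc2+/- vehicle) and 741, 703 and 694 CPM (Tsc2+/- DHPG). Its RPFs were 904, 914 and 776 CPM (WT vehicle), 933, 907 and 813 (WT DHPG), 902, 856 and 825 (Tsc2+/- vehicle) and 914, 869.6 and 834 CPM (Tsc2+/- DHPG). Replicate 3 had the lowest RPF value in every group, and the groups overlapped in both measures. RNA of Tubb2b was 275, 244 and 253 CPM (WT vehicle), 285, 275 and 242 (WT DHPG), 266, 253 and 223 (Tsc2+/- vehicle) and 256, 261 and 242 CPM (Tsc2+/- DHPG). RPFs of Tubb2b were 173, 156 and 142 CPM (WT vehicle), 191, 158 and 143 (WT DHPG), 171, 161 and 161 (Tsc2+/- vehicle) and 169, 151 and 149.5 CPM (Tsc2+/- DHPG). Neither measure separated any pair of groups.

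RNA of Tubb3 was 287, 286 and 289 CPM (WT vehicle), 318, 299 and 282 (WT DHPG), 283, 273 and 267 (Tsc2+/- vehicle) and 305, 272 and 276 CPM (Tsc2+/- DHPG). The 3 Tsc2+/- vehicle libraries lay below the 3 WT vehicle libraries, by a few CPM at the nearest. RPFs of Tubb3 were 448, 444 and 407 CPM (WT vehicle), 474, 470.2 and 420.2 (WT DHPG), 432, 423 and 392 (Tsc2+/- vehicle) and 462, 438 and 405 CPM (Tsc2+/- DHPG). They overlapped between the groups, with replicate 3 lowest in each. RNA of Tubb4a was 786, 867 and 880.0 CPM (WT vehicle), 987, 918 and 931 (WT DHPG), 956, 851 and 883 (Tsc2+/- vehicle) and 891, 886 and 910.3 CPM (Tsc2+/- DHPG). The 3 WT DHPG libraries were the highest of WT and lay above all WT vehicle libraries, and the 3 Tsc2+/- DHPG libraries lay below them. RPFs of Tubb4a were 1193, 1139 and 1085 CPM (WT vehicle), 1231, 1158 and 1124 (WT DHPG), 1176, 1131 and 1129 (Tsc2+/- vehicle) and 1112, 1094 and 1146 CPM (Tsc2+/- DHPG). These overlapped between all groups.

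RNA of Tubb4b was 213, 224 and 219 CPM (WT vehicle), 239.6, 229.9 and 207 (WT DHPG), 222, 215 and 202 (Tsc2+/- vehicle) and 231, 212 and 217 CPM (Tsc2+/- DHPG). Its RPFs were 665, 685 and 659 CPM (WT vehicle), 730.1, 725 and 666 (WT DHPG), 693, 729 and 656 (Tsc2+/- vehicle) and 747, 716 and 647 CPM (Tsc2+/- DHPG). Both overlapped, whereas RPFs per RNA of Tubb4b were higher in Tsc2+/- vehicle than in WT vehicle in every library. Those ratios, in CPM per CPM, were 3.12, 3.05 and 3.01 (WT vehicle), 3.05, 3.16 and 3.21 (WT DHPG), 3.13, 3.39 and 3.25 (Tsc2+/- vehicle) and 3.24, 3.38 and 2.99 (Tsc2+/- DHPG). RNA of Tubb5 was 396, 418 and 419 CPM (WT vehicle), 400.2, 428 and 409 (WT DHPG), 391, 413 and 382 (Tsc2+/- vehicle) and 409, 412 and 418 CPM (Tsc2+/- DHPG). RPFs of Tubb5 were 755, 711 and 659.8 CPM (WT vehicle), 732, 724 and 654 (WT DHPG), 706, 747 and 689.6 (Tsc2+/- vehicle) and 733, 725 and 646 CPM (Tsc2+/- DHPG). The groups overlapped in both, and its RPF CPM per RNA CPM was lower in all 3 Tsc2+/- DHPG libraries, at 1.79, 1.76 and 1.55, than in the Tsc2+/- vehicle libraries, at 1.80, 1.81 and 1.80.

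RNA of the γ member Tubg1 was 30.2, 32.8 and 33.1 CPM (WT vehicle), 36.5, 35.8 and 32.6 (WT DHPG), 31.1, 31.5 and 30.9 (Tsc2+/- vehicle) and 32.9, 36.2 and 31.5 CPM (Tsc2+/- DHPG). Its RPFs were 19.0, 15.6 and 18.6 CPM (WT vehicle), 16.7, 24.4 and 22.5 (WT DHPG), 19.2, 16.2 and 22.1 (Tsc2+/- vehicle) and 17.5, 20.4 and 16.3 CPM (Tsc2+/- DHPG), from 98 to 229 counts a library. The groups overlapped in both, and the low counts gave Tubg1 the widest intervals of the 10 genes.

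Changes were tested with the edgeR quasi-likelihood test over all genes, and a gene was called at a Benjamini-Hochberg adjusted p under 0.1. The change in translational efficiency (TE) was the RPF change minus the RNA change, tested over both kinds of library. The p-values measure the spread between pooled-slice libraries. No tubulin gene was called in any of the 3 measures and 7 comparisons, by edgeR or by DESeq2. Median standard errors (SE) of the members' log2 fold changes were 0.0503 to 0.0506 for RNA, 0.0499 to 0.0503 for RPFs and 0.0716 to 0.0720 for TE in the pairwise comparisons, against 0.105 to 0.110, 0.126 to 0.131 and 0.165 to 0.169 over all genes, and Tubg1 was the exception, with RPF SE of 0.149 to 0.158 and TE SE of 0.169 to 0.177.

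**Figure D3:**
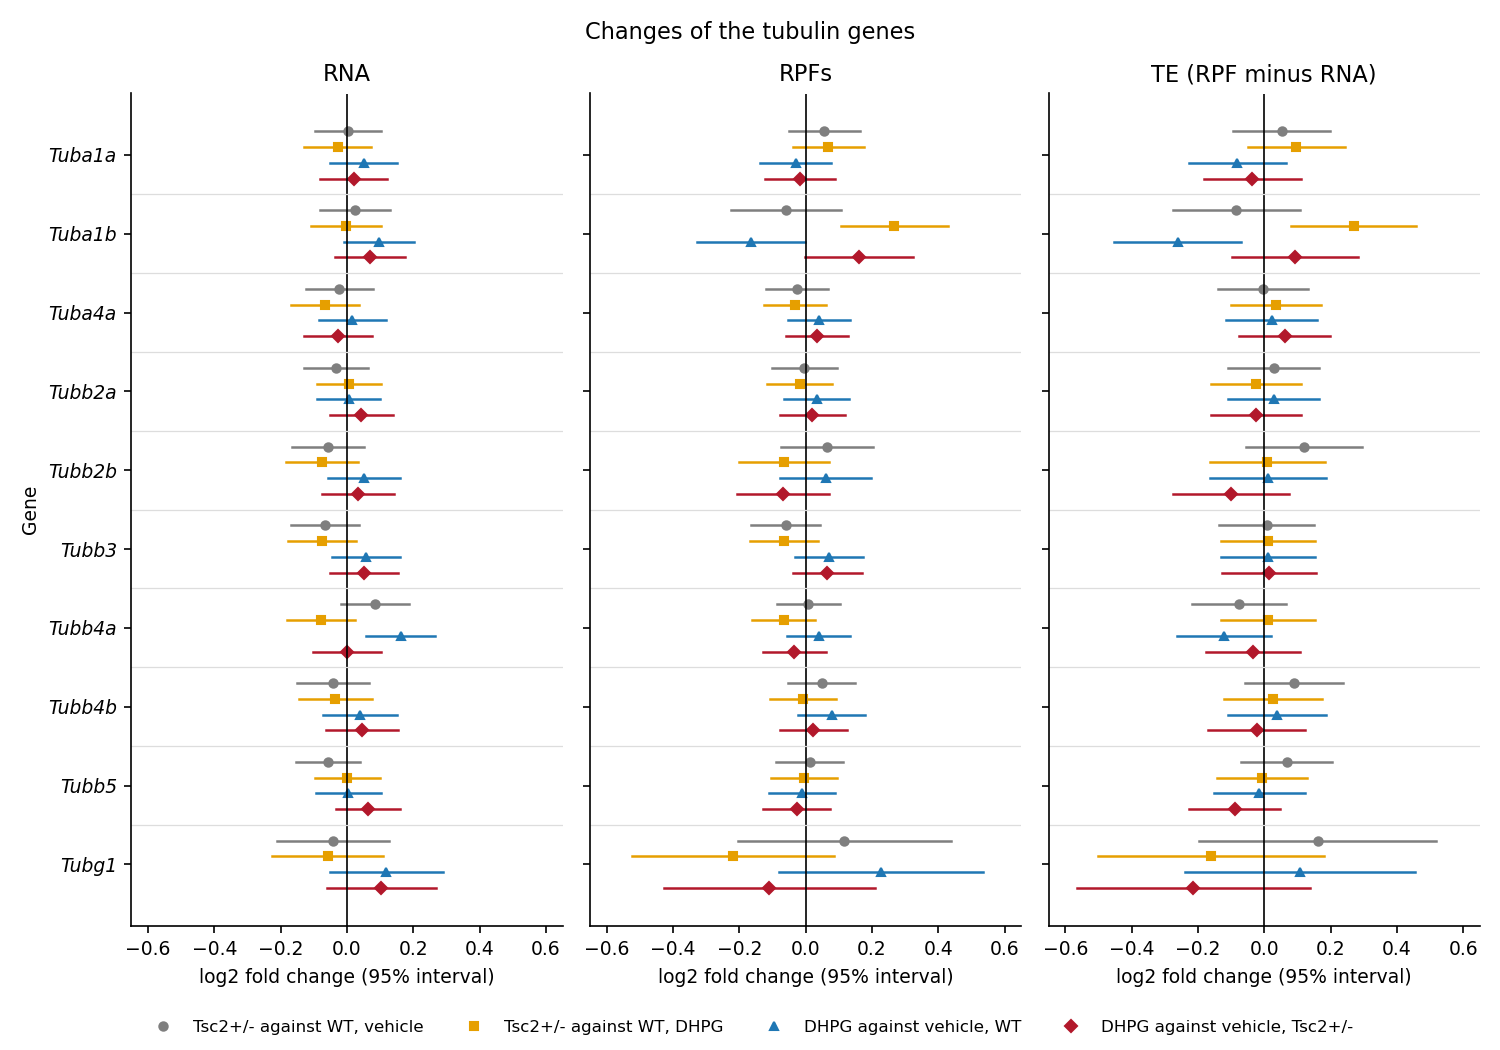
Log2 fold changes of the 10 tubulin genes in RNA, RPFs and TE for the effects of genotype in vehicle and in DHPG and of DHPG in WT and in Tsc2+/-, with 95% intervals from the edgeR fit and a line at 0. No gene passed an adjusted p under 0.1, and before adjustment the intervals of Tubb4a RNA (DHPG in WT) and of Tuba1b RPFs and TE (genotype in DHPG, DHPG in WT) do not include 0.

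The effect of Tsc2+/- in vehicle slices on tubulin RNA was small. The 10 log2 fold changes ran from -0.07 (Tubb3) to 0.08 (Tubb4a), 3 positive and 7 negative, with a median of -0.04 against 0.00 over all genes. Of the 10 genes 0 were called (0.0964% of all genes were) and 0 had an unadjusted p under 0.05 (4.95% of all genes). Tubb3 was the member whose groups did not overlap, as for 8.20% of genes, with a log2 fold change of -0.07 ± 0.0504 (SE) and an adjusted p of 0.977. The 95% intervals of all members lay between -0.21 and 0.19.

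RPFs showed the same in vehicle, with log2 fold changes of -0.06 (Tubb3) to 0.12 (Tubg1), 6 positive and 4 negative, and a median of 0.01. None was called (0.0233% of genes), none had an unadjusted p under 0.05 (6.71%), and no member's groups were separate (8.29%). TE log2 fold changes were -0.08 (Tuba1b) to 0.16 (Tubg1), with 7 positive and a median of 0.04. In TE 0 members were called (0% of genes) and 0 had an unadjusted p under 0.05 (5.15%). Tubb4b was the member with separate groups (7.97% of genes), at a TE log2 fold change of 0.09 ± 0.0734 (SE) and an adjusted p of 0.943. Leaving Tubg1 aside, the 95% intervals of α and β members held TE changes between -0.28 and 0.30.

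Under DHPG, the effect of Tsc2+/- on RNA was again near 0 for the 10 genes, from -0.08 (Tubb4a) to 0.01 (Tubb2a) on the log2 scale, 2 positive and 8 negative, with a median of -0.05. None was called (0.0482% of genes) and 0 had an unadjusted p under 0.05 (4.73%). Tuba4a and Tubb4a were lower without overlap in Tsc2+/- DHPG than in WT DHPG (9.44% of genes), with log2 fold changes of -0.07 ± 0.0502 and -0.08 ± 0.0504 (SE) and an adjusted p of 0.996 for both. Dentate gyrus markers also did not overlap in this comparison, with 39.4 to 45.4 CPM of RNA in WT DHPG against 22.1 to 28.5 in Tsc2+/- DHPG, and 38.7 to 41.0 against 21.2 to 30.3 CPM of RPFs. The RPFs of the immature neuron markers did not overlap either, at 98.2 to 108 against 91.6 to 96.2 CPM, and the part of these markers in the tubulin values was not tested. Among RPFs, Tuba1b stood apart with a log2 fold change of 0.27 ± 0.0790 (SE), an unadjusted p of 0.00192 and an adjusted p of 1. Its value was higher in Tsc2+/- DHPG than in WT DHPG in 3 of 3 same-numbered pairs, from 72.4 to 91.3, 67.4 to 74.2 and 55.1 to 68.6 CPM. It was the 1 member with an unadjusted p under 0.05 (4.25% of genes), 0 members were called (0.0155%), and 0 had separate groups (10%).

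The other 9 genes had RPF log2 fold changes of -0.22 (Tubg1) to 0.07 (Tuba1a) for this comparison. Tuba1a, whose coding windows are mostly shared with Tuba1b, had 0.07 ± 0.0522 (SE) and an adjusted p of 1. The TE change of Tuba1b was 0.27 ± 0.0935 (SE), with an unadjusted p of 0.00588 and an adjusted p of 1. In TE, 0 members were called (0% of genes), 1 had an unadjusted p under 0.05 (2.70%) and 0 had separate groups (9.31%). The median TE change of the 10 genes was 0.01.

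DHPG in WT slices gave positive RNA log2 fold changes for 10 of 10 tubulin genes, from 0.00 (Tubb5 and Tubb2a) to 0.16 (Tubb4a), with a median of 0.05 against 0.00 over all genes. The count rested on the first WT vehicle library, since without it, or without replicate 1 altogether, 5 of 10 were positive. None was called (0% of genes) and 1 had an unadjusted p under 0.05 (6.07%). That gene, Tubb4a, had 844 ± 51.1 CPM in vehicle and 945.5 ± 36.7 CPM after DHPG (SD, n = 3). Its log2 fold change was 0.16 ± 0.0506 (SE), with an unadjusted p of 0.00307 and an adjusted p of 0.800, and its groups did not overlap (10.3% of genes). Without the first WT vehicle library the log2 fold change of Tubb4a RNA was 0.09, and without replicate 1 it was 0.08 (unadjusted p of 0.0927 and 0.171). Oligodendrocyte markers, whose cells express Tubb4a, summed to 5018 to 5929 CPM in WT vehicle and 5555 to 6205 CPM in WT DHPG, and to 5498 to 6451 and 5640 to 6053 CPM in the same treatments of Tsc2+/-. These groups overlapped. Immature neuron markers did not, at 82.6 to 83.9 CPM of RNA in WT vehicle and 85.5 to 88.3 in WT DHPG. The part of either list in the tubulin RNA values was not tested.

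RPFs did not separate the WT groups for any member (8.96% of genes), and 0 members were called (0.0311%). Tubb4a RPFs had a log2 fold change of 0.04 ± 0.0465 (SE) and an adjusted p of 0.889. The other members had RPF log2 fold changes of -0.16 (Tuba1b) to 0.23 (Tubg1), 7 of the 10 positive, with a median of 0.04. Tuba1b RPFs were 73.0 ± 4.99 CPM in vehicle and 65.0 ± 8.92 CPM after DHPG (SD, n = 3), a log2 fold change of -0.16 ± 0.0803 (SE), with an unadjusted p of 0.0490 and an adjusted p of 0.703. Without replicate 3 it was -0.10, and the unadjusted p was under 0.05 in 6 of 23 alternatives. Endothelial markers had 96.4 to 102.5 CPM of RPFs in WT vehicle and 81.6 to 87.5 in WT DHPG, and CA3 markers 32.34 to 34.57 and 28.88 to 32.32 CPM, and their part was not tested. Tuba1b was the 1 member with an unadjusted p under 0.05 in RPFs (7.07% of genes).

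The TE change of Tuba1b with DHPG in WT was -0.26 ± 0.0948 (SE), its unadjusted p 0.00854 and its adjusted p 0.386. This was the smallest adjusted p of any tubulin gene in any comparison. In TE, 0 members were called (0.0548% of genes), 1 had an unadjusted p under 0.05 (8.64%), and 0 had separate groups (10.5%). Tubb4a had a TE change of -0.12 ± 0.0703 (SE) and an adjusted p of 0.644, and the median over members was 0.01. The genotype effect in vehicle and this DHPG effect share the WT vehicle libraries.

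In Tsc2+/- slices, DHPG gave RNA log2 fold changes of -0.03 (Tuba4a) to 0.10 (Tubg1), 8 positive and 2 negative, with a median of 0.04. None was called (0% of genes) and 0 had an unadjusted p under 0.05 (4.86%). Tuba1b was the member with separate RNA groups (8.69% of genes), with a log2 fold change of 0.07 ± 0.0517 (SE) and an adjusted p of 0.959. Dentate gyrus markers did not overlap here either, at 30.1 to 40.3 CPM of RNA in Tsc2+/- vehicle against 22.1 to 28.5 after DHPG, and 33.9 to 41.7 against 21.2 to 30.3 CPM of RPFs. Choroid plexus markers, of which Ttr and Clic6 were at 0 to 3 counts, had 17.4 to 19.8 against 15.1 to 15.7 CPM of RPFs. The part of these markers in the tubulin values was not tested. Tubb4a, highest in WT for this effect, had 897 ± 53.8 CPM in vehicle and 896 ± 12.8 CPM after DHPG (SD, n = 3), a log2 fold change of -0.00 ± 0.0503 (SE). Tuba1b RPFs were 69.9 ± 8.60 CPM in vehicle and 78.0 ± 11.8 CPM after DHPG (SD, n = 3), a log2 fold change of 0.16 ± 0.0799 (SE), with an unadjusted p of 0.0507 and an adjusted p of 0.999.

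RPF changes of the 10 genes with DHPG in Tsc2+/- had a median of 0.00, with 5 positive and 5 negative. No member was called (0% of genes), 0 had an unadjusted p under 0.05 (3.87%) and 0 had separate groups (9.42%). In TE the median was -0.03, with 3 positive and 7 negative, 0 members called (0% of genes) and 0 with an unadjusted p under 0.05 (3.32%). Tubb5 was the member with separate TE groups (10% of genes), with a change of -0.09 ± 0.0679 (SE) and an adjusted p of 0.999.

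The test of whether DHPG acted differently in the genotypes called 0 members in RNA, RPFs and TE (0% of genes in each). Tubb4a RNA had an interaction of -0.16 ± 0.0714 (SE), an unadjusted p of 0.0295 and an adjusted p of 0.999, and was the 1 member with an unadjusted p under 0.05 in RNA (3.51% of genes). Without the first WT vehicle library it was -0.09 and without replicate 1 it was -0.03, and the unadjusted p of this Tubb4a interaction was under 0.05 in 15 of 21 alternatives. Tuba1b RPFs had 0.33 ± 0.113 (SE), an unadjusted p of 0.00698 and an adjusted p of 0.996, and Tuba1b was the 1 such member in RPFs (3.84%). Tuba1b TE had 0.35 ± 0.134 (SE), an unadjusted p of 0.0110 and an adjusted p of 1, again the 1 such member (3.77%), and without replicate 1 it was 0.24 (unadjusted p 0.146). The Tuba1b RPF log2 fold changes with DHPG were thus -0.16 in WT and 0.16 in Tsc2+/-, and this difference did not pass the threshold over all genes.

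Averaged over treatments, genotype gave 0 called members in RNA (0.248% of genes), RPFs (0.0544%) and TE (0%), and 0 with an unadjusted p under 0.05 (6.28%, 6.83% and 4.08%). Averaged over genotypes, DHPG gave 0 called members in RNA (0.0207%), RPFs (0.0311%) and TE (0.0469%). For RNA, 2 members had an unadjusted p under 0.05 (7.61% of genes). They were Tuba1b, with a log2 fold change of 0.08 ± 0.0367 (SE), higher in 6 of 6 pairs, and Tubb4a, with 0.08 ± 0.0357 (SE), higher in 5 of 6 pairs, at adjusted p of 0.630 and 0.637. Without the first WT vehicle library both Tuba1b and Tubb4a were at 0.04, and their unadjusted p was under 0.05 in 14 and 13 of 21 alternatives. In RPFs and TE 0 members had one (6.96% and 8.05%).

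**Figure D4:**
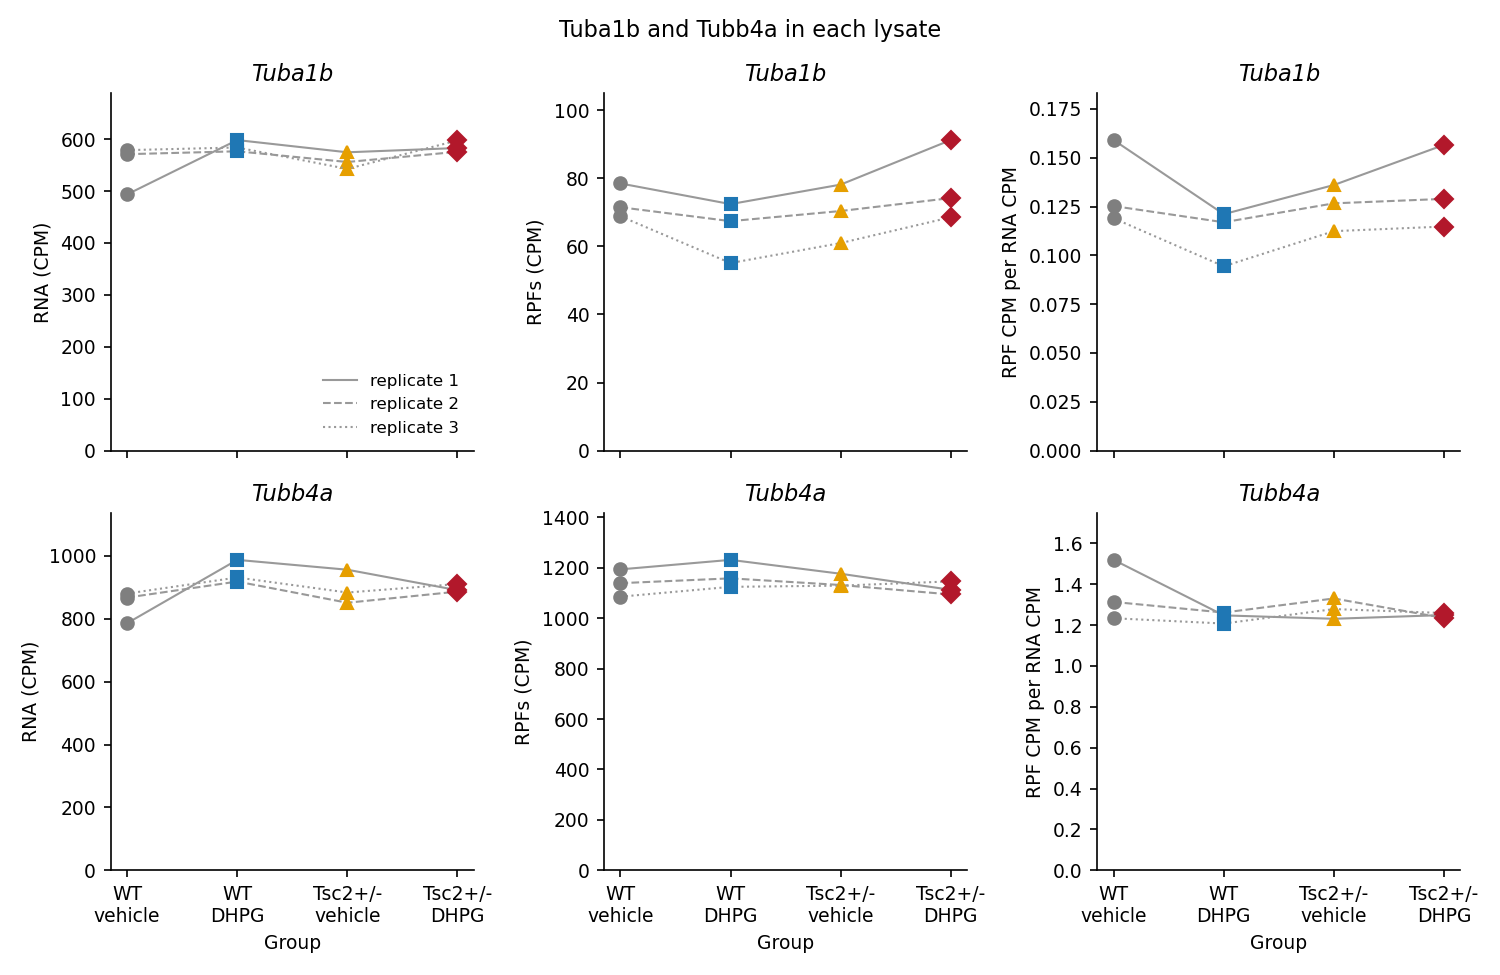
Tuba1b and Tubb4a in each of the 12 lysates as RNA CPM, RPF CPM and RPF CPM per RNA CPM, on axes from 0, with lines joining libraries of the same replicate number. Tuba1b RPFs run from 55.1 to 91.3 CPM and order by replicate number in every group, and Tubb4a RNA is lowest in the first WT vehicle library at 786 CPM.

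The members varied together across libraries in RNA more than in RPFs. With the mean of each replicate number removed, log2 RNA CPM of the pairs of members had a median Pearson's r of 0.58 over 12 libraries, from 0.12 to 0.88, and Tuba1a and Tuba1b, which share most coding windows, had 0.855. For RPFs the median was 0.00807, from -0.68 to 0.68, and Tuba1a and Tuba1b had 0.531. Against the mean of the other members, r was 0.468 (Tubb2b) to 0.890 (Tuba1a) for RNA and -0.535 (Tuba1b) to 0.298 (Tuba4a) for RPFs. The points share libraries and depth, and these values describe the libraries only.

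**Figure D5:**
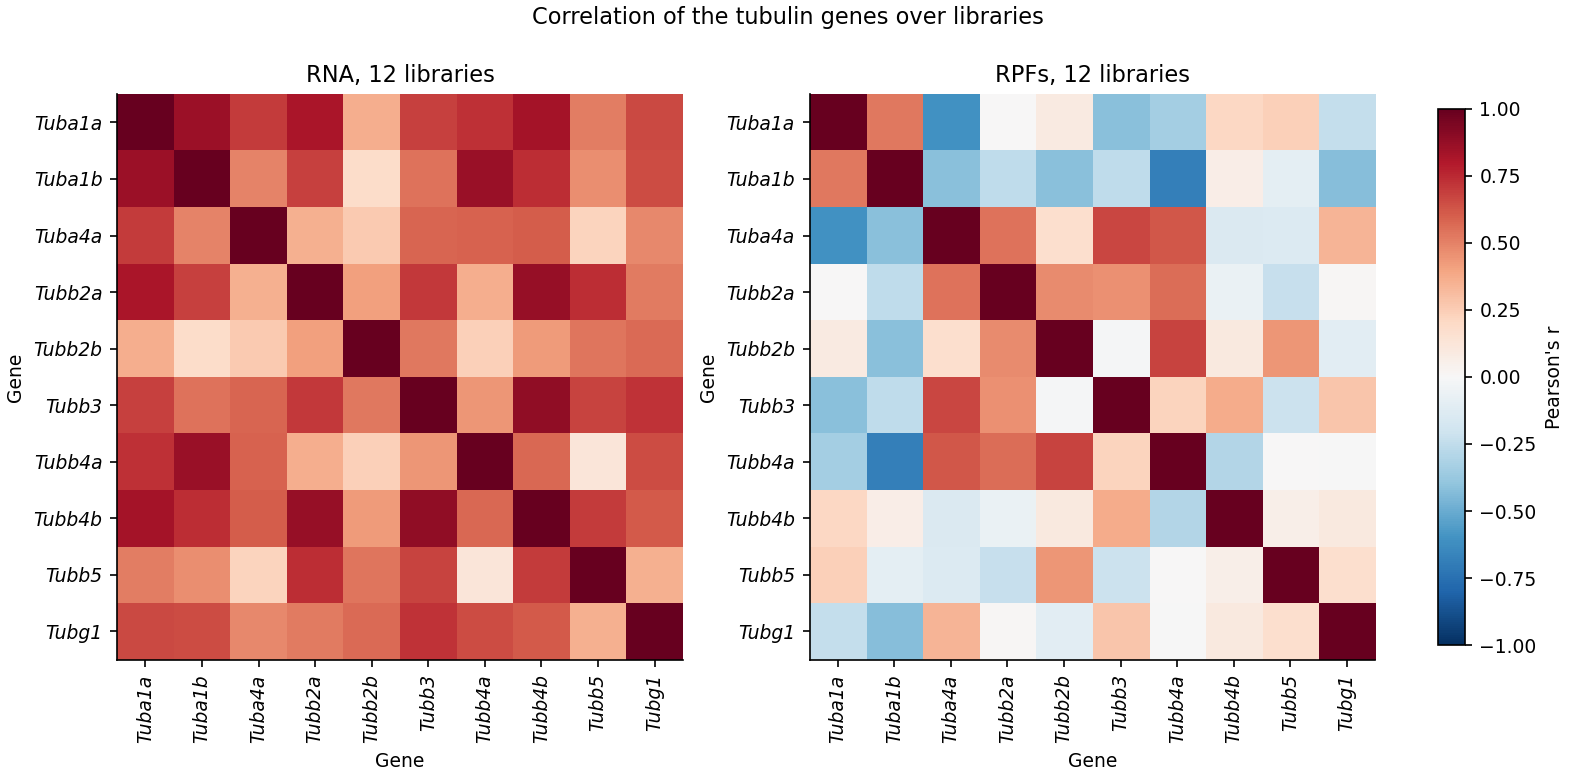
Pearson's r between tubulin genes over 12 libraries in RNA (left) and RPFs (right), from log2 CPM with the mean of each replicate number removed. RNA pairs range from 0.12 to 0.88 and RPF pairs from -0.68 to 0.68.

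The 5 other genes whose RNA most resembled the members' mean were Il6 (r = 0.933), Erf (0.929), Rnf208 (0.924), Sncb (0.917) and Ranbp3 (0.910), over 12 libraries. In RPFs they were Rbm18 (r = 0.937), Fars2 (0.928), Ubap1l (0.913), Cckbr (0.903) and Alkbh7 (0.886). The 2 lists had no gene in common. Both were picked as the highest r over all tested genes, which by itself gives high values. In RPFs the members' own r with the mean of the other members was only -0.535 to 0.298.

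Genes that act on tubulin were read in 7 lists of 100 genes, of which 93 were tested for RNA and 91 for RPFs and TE. In the 4 pairwise comparisons none was called in either direction by edgeR or DESeq2. At an unadjusted p under 0.05 there were 3, 5 and 4 of them for genotype in vehicle in RNA, RPFs and TE, and 0, 6 and 4 for genotype in DHPG. There were 9, 7 and 13 for DHPG in WT, which is 9.68%, 7.69% and 14.3% of those tested, beside 6.07%, 7.07% and 8.64% of all genes. For DHPG in Tsc2+/- there were 4, 2 and 1 (4.30%, 2.20% and 1.10%, beside 4.86%, 3.87% and 3.32% of all genes). The shares for genotype were 3.23%, 5.49% and 4.40% in vehicle and 0%, 6.59% and 4.40% in DHPG, beside 4.95%, 6.71% and 5.15%, and 4.73%, 4.25% and 2.70%, of all genes.

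In the autoregulation list, 12 of 13 genes were tested. Ttc5, which recognises the nascent tubulin chain, had RNA log2 fold changes of -0.06 ± 0.0997 (SE) for genotype in vehicle and -0.18 ± 0.104 for DHPG in WT, at adjusted p of 0.984 and 0.843. Its RPF changes were 0.09 and 0.07, and its TE changes 0.15 and 0.24. Scaper, the adaptor to the deadenylase, had RNA changes of 0.08 and -0.09, RPF changes of 0.11 and 0.14, and TE changes of 0.03 and 0.23 for these comparisons. Cnot11, the CCR4-NOT subunit that SCAPER contacts, had RNA changes of -0.03 and 0.06, RPF changes of 0.02 and 0.09, and TE changes of 0.06 and 0.03. Of the 12 genes, 2 had a positive RNA change with DHPG in WT (median -0.05) and 8 a positive TE change (median 0.08). RNA values enter both measures. With DHPG in Tsc2+/-, 4 were positive in RNA and 9 in TE (medians -0.02 and 0.02). For genotype in vehicle, 5 were positive in RNA and 8 in TE (medians -0.02 and 0.04). The deadenylase subunit Cnot6 had an RPF change of 0.64 ± 0.273 (SE) for genotype in vehicle with an adjusted p of 0.683. Its TE change was 0.72 (adjusted p 0.934). Cnot3 had an RNA change of 0.15 for that effect (adjusted p 0.963), and Cnot8 RPF and TE changes of 0.17 and 0.28 with DHPG in WT (adjusted p 0.715 and 0.472).

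Newly made tubulin is folded by prefoldin and the chaperonin CCT, and all 14 of these subunit genes were tested. With DHPG in WT 0 of 14 had a positive RNA change, with a median log2 fold change of -0.09, and 4 had an unadjusted p under 0.05 (6.07% of all genes did). In TE 13 of 14 had a positive change, with a median of 0.17, and 6 had an unadjusted p under 0.05 (8.64% of all genes). The same RNA values enter both measures. Genotype in vehicle, a comparison without DHPG, shares the WT vehicle libraries. There 1 of 14 had a positive RNA change and 13 of 14 a positive TE change (medians -0.06 and 0.11). The part of the shared WT vehicle libraries in the DHPG values was not tested. With DHPG in Tsc2+/-, 4 of 14 had a positive RNA change and 11 of 14 a positive TE change (medians -0.05 and 0.05), and 0 had an unadjusted p under 0.05 in RNA, RPFs or TE. The interaction called none of them. Tcp1, a CCT subunit, had an RNA change of -0.16 ± 0.0559 (SE, adjusted p 0.800), and the prefoldin subunit gene Pfdn4 a TE change of 0.56 ± 0.185 (SE, adjusted p 0.328). Pfdn6 had an RPF change of 0.20 (adjusted p 0.595). For genotype in vehicle the smallest p of the list was that of Vbp1 in RNA (-0.22, adjusted p 0.961), Pfdn6 in RPFs (0.14, adjusted p 0.762) and Pfdn4 in TE (0.50, adjusted p 0.934). All 7 tubulin cofactors, which assemble the dimer, were tested, and Tbca, which binds β-tubulin, had an RNA change of -0.18 with DHPG in WT (adjusted p 0.868) and Tbcc one of -0.22 for genotype in vehicle (adjusted p 0.961). Tbcd had an RPF change of -0.12 for genotype in vehicle (adjusted p 0.851) and a TE change of -0.18 with DHPG in WT (adjusted p 0.699). Tbcb had an RPF change of 0.13 with DHPG in WT (adjusted p 0.737), and Tbce a TE change of -0.11 for genotype in vehicle (adjusted p 0.968).

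Among 16 tested enzymes that modify tubulin, the polyglutamylase gene Ttll5 had the smallest p for genotype in vehicle in RNA (0.23 ± 0.0845, adjusted p 0.920) and in RPFs (0.47, adjusted p 0.655). With DHPG in WT the Ttll5 changes were 0.17 in RNA (adjusted p 0.807) and 0.34 in RPFs (adjusted p 0.717). Vash1, a detyrosinating enzyme, had a TE change of -0.48 for genotype in vehicle (adjusted p 0.934), and Ttll12 one of -0.29 with DHPG in WT (adjusted p 0.681). Among the 8 genes of the γ-tubulin ring complex, Tubgcp4 had an RNA change of 0.12 for genotype in vehicle (adjusted p 0.977) and Tubgcp2 of 0.09 with DHPG in WT (adjusted p 0.916). Nedd1, which recruits the ring complex, had an RPF change of -0.48 and a TE change of -0.51 for genotype in vehicle (adjusted p 0.867 and 0.961). With DHPG in WT, Tubgcp4 had an RPF change of 0.24 (adjusted p 0.754) and Tubgcp6 a TE change of -0.20 (adjusted p 0.793).

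Among 30 microtubule-binding and severing genes, Map1a, a microtubule-associated protein of dendrites, had 1979 ± 132 CPM of RNA in WT vehicle and 2244 ± 86.2 CPM after DHPG, against 2230.0 ± 77.3 and 2277 ± 63.1 CPM in Tsc2+/- (SD, n = 3). Its log2 fold change was 0.17 ± 0.0464 (SE) for genotype in vehicle and 0.18 ± 0.0465 for DHPG in WT, at edgeR adjusted p of 0.411 and 0.647, and both rest on the same WT vehicle libraries. For the DHPG effect averaged over genotypes, DESeq2 called Map1a RNA (log2 fold change 0.11, adjusted p 0.0967), which edgeR did not (0.11 ± 0.0328, adjusted p 0.518). Stmn3, which sequesters tubulin dimers, had an RPF change of -0.20 for genotype in vehicle (adjusted p 0.559), and Mapre2, a plus-end binding protein, one of 0.18 with DHPG in WT (adjusted p 0.526). Mapt, encoding tau, had a TE change of -0.13 for genotype in vehicle (adjusted p 0.934), and Map7d1 one of -0.27 with DHPG in WT (adjusted p 0.347).

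Of 10 further tubulin genes, 6 passed the filter. Tubg2, the neuronal γ-tubulin, had 570 to 1039 RNA counts a library, Tubb6 233 to 503, Tuba1c 164 to 311, Tuba8 74 to 118, the δ-tubulin gene Tubd1 55 to 114 and the ε-tubulin gene Tube1 7 to 33. Tuba3a, Tuba3b, Tubal3 and Tubb1 had 0 or 1 RNA count in every library. Tuba1c RNA had a log2 fold change of 0.38 with DHPG in WT (adjusted p 0.861) and Tubd1 RNA of -0.28 for genotype in vehicle (adjusted p 0.974). Tubd1 had an RPF change of 0.48 (adjusted p 0.702) and a TE change of 0.76 (adjusted p 0.934) for genotype in vehicle, and a TE change of 0.41 with DHPG in WT (adjusted p 0.723). Tube1 RPFs had a change of 0.57 with DHPG in WT (adjusted p 0.818).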

How the data were processed

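RNA-seq and ribosome profiling libraries of hippocampal slices were analysed. Per the labels and the study's methods, the authors trimmed adapters (cutadapt), removed rRNA and tRNA reads (Bowtie2), mapped to mm10 (TopHat2), kept uniquely mapped reads, removed duplicates by molecular identifiers and counted with RSEM over transcripts (RNA) or coding sequences less 30 bases at each end (RPF). The deposited expected counts were whole numbers, so rounding left them as they were, and 0 columns lacked a sample.

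Samples were grouped by assay, genotype and treatment from the labels. Genes were filtered with filterByExpr (minimum count 10) and scaled by TMM. Differences were tested in R 4.3.3 with the edgeR 4.0.16 quasi-likelihood test (two-sided), modelling group plus replicate number since the study corrected for batch. There were 7 comparisons: genotype in either treatment, DHPG in either genotype, the interaction and both averaged effects. TE was the interaction of assay and group. P-values were adjusted over all genes tested, and SE came from the F statistic. Correlations used log2 CPM with a prior count of 2. Lengths, coordinates, sequences and window uniqueness came from RefSeq on GRCm38.p6, the build of mm10, and the release may differ from the authors' annotation.

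Alternatives were no replicate block, DESeq2 1.42.0, ComBat (sva 3.50.0) with DESeq2, DESeq2 size factors, no filter, only the groups compared, an adjusted p under 0.05, halved RPF counts, limma 3.58.1 on RPF minus RNA, the shortest transcript, and fits without single libraries or replicate numbers. Scripts were first tested on simulated data for genotype in vehicle. A true log2 change of 0.25 was called in 32% of changed genes in RNA, 24% in RPFs and 6% in TE. For a change of 0.5 the values were 100%, 84% and 68%. In that simulation changes of 0.25 were thus often missed. It gave every gene the same spread and covered no other comparison, so the power for the tubulin genes themselves was not tested. The members were taken by gene name, and the choice of this gene family and of the other lists was made with earlier results of these data known. Named were all members, Ttc5, Scaper and Cnot11, called pathway genes, in each pathway list the gene with the smallest p for genotype in vehicle and DHPG in WT, and the 5 genes most like the members' mean.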

Additional observations from a re-analysis of the deposited data

How the results depend on the processing

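The number of tubulin genes called was 0 in RNA, RPFs and TE in each comparison under each alternative that was run, 151 fits and comparisons for RNA, 158 for RPFs and 158 for TE, including DESeq2, ComBat with DESeq2 and halved RPF counts. The smallest adjusted p of a member over these was 0.107 for RNA (Tubb4a, DHPG in WT, without the second WT vehicle library), 0.374 for RPFs and 0.153 for TE. The direction differed from the reported value in 135 of 1510 RNA values, 115 of 1580 RPF values and 119 of 1580 TE values.

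Same-numbered libraries correlated at 0.0228 to 0.143 in RNA and 0.0330 to 0.263 in RPFs after group means were removed, not every pair over 0.1. Differently numbered libraries were at -0.615 to 0.024 in RNA and -0.652 to 0.0667 in RPFs. These include libraries of the same group, whose values are lowered by removing the group mean. The labels do not say that a number marks a batch. Without the replicate block 0 members were called in all comparisons, 7 of 210 values had an unadjusted p under 0.05 against 10 of 210 with it, and the smallest adjusted p was 0.794 against 0.386.

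The log2 fold change of Tuba1b RPFs for genotype in DHPG was 0.22 to 0.32 over its 23 alternatives, with an unadjusted p under 0.05 in 23 of them and an adjusted p of 0.374 to 1. That of Tubb4a RNA for DHPG in WT was 0.08 to 0.20 over 22 alternatives, under 0.05 in 20, with an adjusted p of 0.107 to 1. Counts of alternatives here and above include the adjusted p threshold of 0.05, which repeats the reported fit and could call no further member. Many of the others leave out 1 library of the same data, so the alternatives are not independent. RPF counts of 98 to 229 a library limited the precision for Tubg1.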

Other observations

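RPFs of several tubulin genes differed with the replicate number of the library. Replicate 3 had the lowest RPF CPM in all 4 groups for 5 members (Tuba1b, Tubb2a, Tubb3, Tubb4b and Tubb5), for 0 members in RNA, and for 1 (Tuba1b) in RPFs per RNA. Mean Tuba1b RPFs over the groups were 80.1 CPM in replicate 1, 70.9 in replicate 2 and 63.4 in replicate 3. The part of library preparation in this was not tested.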
